A study of Mus musculus with 4 samples.

Results

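Described here are 10 genes of calcium-regulated and membrane-associated proteins that adipose regulatory T (Treg) cells express: S100a4, S100a6, S100a10, S100a11, Anxa1, Anxa2, Lgals1, Lgals3, Crip1 and Vim. They were taken by symbol as 10 of the 32285 gene rows of each matrix, and all 10 were found in both. Their RNA was counted by droplet single-cell sequencing with 5′ chemistry, in which each captured molecule carries a unique molecular identifier (UMI). Treg cells of visceral adipose tissue of male mice were sorted as live CD3+ CD4+ Foxp3+ cells, given a hashtag antibody per condition and mixed 1:1 within each of 2 experiments.

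The first experiment set KO cells (Srebf2flox/flox, 4 mice) beside WT cells (Srebf2WT/WT, 4 mice), all 25 weeks old. The design text writes Foxp3YFP-cre, a Cre recombinase placed under Foxp3 control, before the WT genotype only. It was taken here to name both genotypes, as Srebf2 counts were low in KO cells. In the second experiment, HFD cells came from 5 mice fed a high-fat diet for 22 weeks. NCD cells came from 5 mice on normal chow for the same time. The mice of this second experiment were 23 to 27 weeks old and all carried Foxp3thy1.1 and PpargTdt. Mice of a condition were pooled under 1 hashtag, so each condition is 1 sample with no replicate check and no test. Every difference below therefore lacks an error between mice, and the 95% intervals given cover counting error only.

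Cells entered with 500 or more genes, under 10% mitochondrial counts, at least 90% of hashtag UMIs from their own hashtag, and no UMI of Cd79a, Lyz2 or Cd8a. This left 3956 KO, 3490 WT, 4512 HFD and 4938 NCD cells, with medians of 3640.5, 3589.5, 3193.5 and 3989 UMIs per cell and sums of 14010241 to 22200627 UMIs per condition. Srebf2 itself was at 3.95 CPM (UMIs of the gene, scaled to an equal total of UMIs per condition) in KO cells against 65.7 CPM in WT cells. A Cd3e UMI was present in 91.8% to 94.1% of cells of the 4 conditions. Of Treg markers, Foxp3 was at 162 CPM in HFD cells and between 213 and 262 CPM in the other 3 conditions, Ikzf2 between 765 and 1040 CPM in all 4, and Il2ra at 193 CPM in HFD cells and between 554 and 656 CPM elsewhere. The pools shared 135 barcodes, 87 of them among kept cells, and leaving these out gave members' median log2 ratios of −0.10 (KO over WT, −0.11 with them) and −1.86 (HFD over NCD, unchanged to this digit).

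S100 proteins are small EF-hand calcium sensors that bind partner proteins; annexins bind acidic phospholipids of membranes in a calcium-dependent way, and members of both families pair with each other. S100a10 joins Anxa2 in a membrane complex, and S100a11 binds Anxa1. Galectins bind beta-galactosides on glycoproteins, and galectin-1 is among the mediators that Treg cells use to restrain other T cells. Crip1 is a small LIM-domain protein, and vimentin (Vim) is the intermediate filament of mesenchymal cells and lymphocytes. In T cells these genes are typically low in resting, lymph-node-homing cells and high in effector and tissue-resident cells, and many tissue-resident Treg cells of visceral fat carry ST2, the interleukin-33 receptor encoded by Il1rl1.

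All 4 S100 members lie on mouse chromosome 3. In GRCm38.p6, S100a4 spans 90603770 to 90606045 and S100a6 spans 90612894 to 90614414, a gap of 6849 bases in which S100a5 lies. S100a11 (93520496 to 93526288) and S100a10 (93555117 to 93564645) follow 2906082 bases further on, 28829 bases apart. Anxa1 lies on chromosome 19, Anxa2 on 9, Lgals1 on 15, Lgals3 on 14, Crip1 on 12 and Vim on 2. RefSeq promoter windows matched 8 of the 10 members.

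The windows of 5 members are shown because they hold the genes with the largest differences between diets, the neighbouring pair S100a4 and S100a6, and Anxa2, which was the one member not lower in HFD over all cells. Each gives the 250 bases before the annotated start, 5′ to 3′ on the gene's strand (GRCm38.p6, RefSeq), at chr3:90603520-90603769 (plus), chr3:90612644-90612893 (plus), chr19:20390672-20390921 (minus), chr14:47373610-47373859 (plus) and chr9:69453433-69453682 (plus). Capitals mark matches, on either strand, to any of 3 motifs. The site of the AP-1 factors was searched as TGANTCA. The core element of many sharply regulated promoters, the TATA box, was searched as TATAAA. The site of the Sp family of factors, known as the GC box, was searched as GGGCGG.
S100a4: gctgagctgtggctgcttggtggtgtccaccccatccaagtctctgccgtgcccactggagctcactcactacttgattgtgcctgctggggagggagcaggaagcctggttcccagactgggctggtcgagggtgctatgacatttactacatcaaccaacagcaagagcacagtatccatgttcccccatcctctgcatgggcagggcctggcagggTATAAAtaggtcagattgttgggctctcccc
S100a6: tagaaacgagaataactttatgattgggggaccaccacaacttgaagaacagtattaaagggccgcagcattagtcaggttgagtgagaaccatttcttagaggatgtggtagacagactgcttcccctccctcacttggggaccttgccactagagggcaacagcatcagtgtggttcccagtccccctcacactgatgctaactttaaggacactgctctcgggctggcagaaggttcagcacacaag
Anxa1: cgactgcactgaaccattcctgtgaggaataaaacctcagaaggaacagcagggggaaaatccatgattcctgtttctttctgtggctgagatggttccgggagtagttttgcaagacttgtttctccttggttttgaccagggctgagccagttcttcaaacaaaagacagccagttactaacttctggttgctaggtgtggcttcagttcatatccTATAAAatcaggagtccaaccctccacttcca
Lgals3: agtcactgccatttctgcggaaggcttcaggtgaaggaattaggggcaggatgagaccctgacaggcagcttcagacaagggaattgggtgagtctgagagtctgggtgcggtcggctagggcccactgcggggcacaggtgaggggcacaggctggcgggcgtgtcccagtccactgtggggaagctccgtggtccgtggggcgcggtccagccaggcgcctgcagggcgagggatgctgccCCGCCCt
Anxa2: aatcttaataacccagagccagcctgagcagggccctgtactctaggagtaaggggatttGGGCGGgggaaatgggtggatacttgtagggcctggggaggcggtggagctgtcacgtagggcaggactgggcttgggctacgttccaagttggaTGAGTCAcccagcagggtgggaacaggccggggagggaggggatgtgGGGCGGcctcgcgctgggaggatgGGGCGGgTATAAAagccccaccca
The TATA match began 31 bases before the start of S100a4, 32 before Anxa1 and Vim and 17 before Anxa2, so that 4 of 8 members held it, against 12.4% of 32851 promoters of the same length. An AP-1 match was found in S100a11 and Anxa2, 2 of 8, against 6.75% of promoters, and a GC box in S100a11, Anxa2, Lgals3 and Crip1, 4 of 8, against 32.7%. The window of S100a6 held none of the 3 motifs. These matches describe letters and say nothing of binding.

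Over all cells, 9 of the 10 genes were lower in HFD than in NCD cells, between 1.76-fold (S100a11) and 14.2-fold (Anxa1), and Anxa2 was not. None of the 10 reached the size of difference called here between KO and WT cells. Together the 10 genes made up 0.717% of all UMIs in HFD cells against 2.35% in NCD cells, and 2.01% in KO cells against 2.15% in WT cells. A gene is called higher or lower here where the log2 ratio is 0.32 or more in size, a convention about size with no test behind it. Genes counted as measured reached 5 CPM in at least 1 of the conditions compared. In HFD against NCD cells 15.8% of 10024 measured genes were lower by that rule and 23.6% higher. Scaling by the median ratio over these genes, which lies at 0.08, turned 2364 higher and 1585 lower genes (59.9% higher) into 1839 higher and 1996 lower (48.0% higher), and 9 members were still called lower. In KO against WT cells 4.9% of 9822 genes were lower and 5.41% higher. CPM were not divided by transcript length, so levels are compared between conditions and not between genes.

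**Figure D1:**
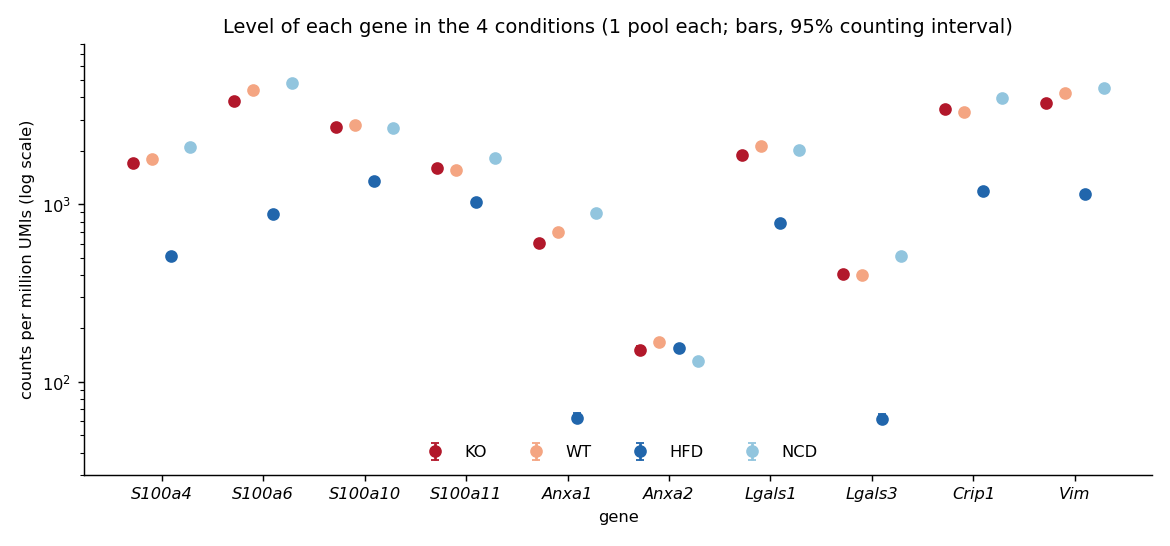
Level of each of the 10 genes in KO, WT, HFD and NCD cells, in CPM on a log axis; points are 1 pool each and bars the exact 95% Poisson interval. The HFD points lie lowest for every gene but Anxa2, whose 4 points span 131 to 167 CPM.

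Among the calcium sensors, S100a4, which binds nonmuscle myosin heavy chain and is linked to cell motility, was at 513 CPM in HFD and 2091 CPM in NCD cells, and at 1703 CPM in KO and 1804 CPM in WT cells. Its log2 ratio was −2.03 (95% interval −2.06 to −2.00) for HFD over NCD and −0.08 (−0.11 to −0.06) for KO over WT. HFD cells thus stood far below NCD cells, while KO and WT cells, from the other experiment, lay close together.

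S100a6 (calcyclin), whose partner is Cacybp, was at 879.7 CPM in HFD and 4803 CPM in NCD cells, a log2 ratio of −2.45 (−2.47 to −2.42). In KO and WT cells it stood at 3832 and 4392 CPM (−0.20, −0.21 to −0.18). It had the largest diet difference of the 4 S100 members and, after Anxa1, the largest genotype difference of all 10, at 1.15-fold.

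S100a10, the Anxa2-binding subunit, was at 1349.7 CPM in HFD and 2685 CPM in NCD cells (−0.99, −1.01 to −0.97), and at 2732 CPM in KO and 2807 CPM in WT cells (−0.04, −0.06 to −0.02). S100a11, the Anxa1-binding one, was at 1034 CPM in HFD and 1824 CPM in NCD cells (−0.82, −0.84 to −0.79), and at 1604 CPM in KO and 1566 CPM in WT cells (0.03, 0.01 to 0.06). S100a10 and S100a11 thus had the smallest diet differences of the 9 genes that were lower.

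The annexins parted. Anxa1, a glucocorticoid-inducible mediator that acts through formyl peptide receptors, was at 62.9 CPM (59.4 to 66.7) in HFD and 896 CPM (883 to 908) in NCD cells, a log2 ratio of −3.83 (−3.92 to −3.75). The ratio was −2.05 when droplets with a Cd79a, Lyz2 or Cd8a UMI were kept, and −2.86 when cells with a UMI from a wider list of other cell types' markers were left out. The wider list left only 1412 of 4512 HFD and 3168 of 4938 NCD cells. Anxa1 was at 606 CPM in KO and 699.8 CPM in WT cells (−0.21, −0.25 to −0.17). Only 0.249% of the genes measured in the diet comparison had a lower ratio than Anxa1.

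Anxa2, which organises membrane domains and binds plasminogen at the cell surface, was at 155 CPM (149 to 161) in HFD and 131 CPM (126 to 135) in NCD cells, a log2 ratio of 0.25 (0.17 to 0.32). In KO cells it was at 152 CPM and in WT cells at 167 CPM (−0.13, −0.21 to −0.05). The counting intervals of the 2 diets did not overlap, but the difference was under the size called here. Its 10 richest cells held 17.8% of its HFD UMIs, against 4.24% in NCD cells. The same share was 20.7% in HFD and 1.36% in NCD cells for Anxa1, and 19.4% and 1.90% for Lgals3. For Anxa2, among cells with a CD3 gene's UMI and no UMI of stromal or endothelial markers the log2 ratio was −0.01.

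Of the galectins, Lgals1 (galectin-1) was at 782 CPM in HFD and 2033 CPM in NCD cells (−1.38, −1.41 to −1.35), and at 1902 CPM in KO and 2127 CPM in WT cells (−0.16, −0.18 to −0.14). Lgals3 (galectin-3), which can cross-link surface glycoproteins into lattices, was at 62.1 CPM (58.5 to 65.8) in HFD and 512 CPM (502 to 521) in NCD cells (−3.04, −3.13 to −2.96). That ratio was −0.35 when droplets with a Cd79a, Lyz2 or Cd8a UMI were kept, and the HFD level is below the 91.8 CPM of Lgals3 in the diet pool's B-cell droplets. In KO and WT cells Lgals3 differed by 0.01 (−0.04 to 0.06), at 406 and 402 CPM. Lgals3 thus had the second largest diet difference of the 10 genes and the smallest genotype difference.

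Crip1 was at 1182 CPM in HFD and 3976 CPM in NCD cells (−1.75, −1.77 to −1.73), and at 3435 CPM in KO and 3297 CPM in WT cells (0.06, 0.04 to 0.08). Vim, which also serves as a scaffold during migration, was at 1151 CPM in HFD and 4511 CPM in NCD cells (−1.97, −1.99 to −1.95), and at 3722 CPM in KO and 4213 CPM in WT cells (−0.18, −0.20 to −0.16). The median log2 ratio over the 10 members was −1.86 for HFD over NCD, where all measured genes had a median of 0.08, and −0.11 for KO over WT, where all genes had a median of 0.00. Of the members, 3 (S100a11, Lgals3 and Crip1) were at or above the WT level in KO cells and 7 were below it.

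**Figure D2:**
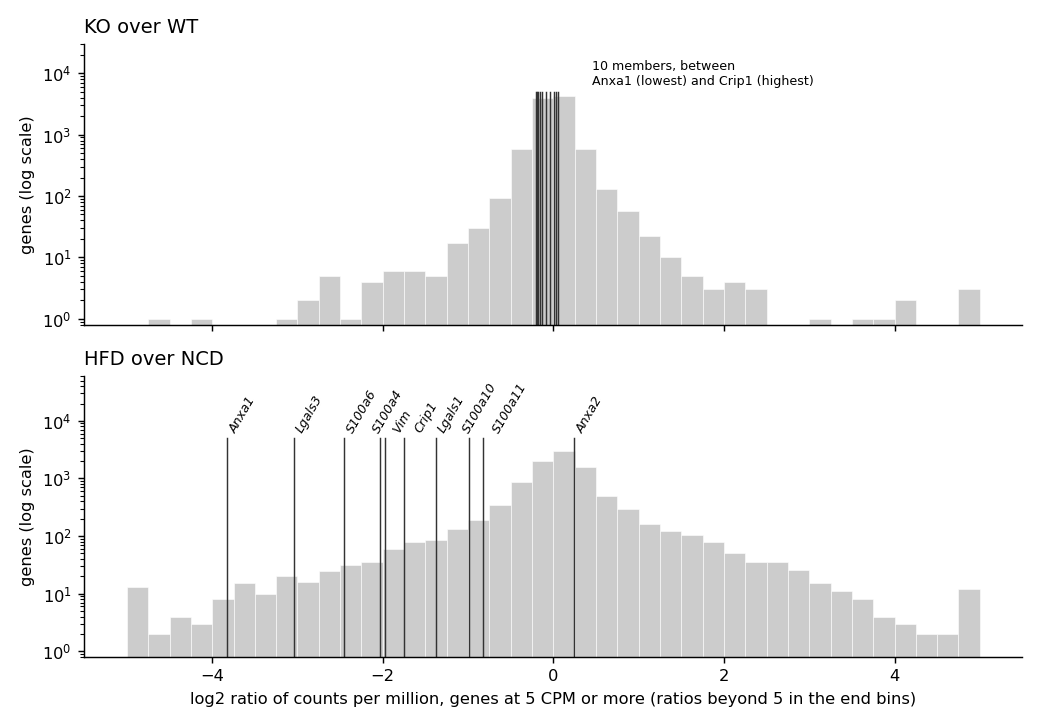
Number of genes (log axis) per bin of the log2 ratio of CPM, KO over WT above and HFD over NCD below, over measured genes; vertical lines mark the 10 members. The members lie between −0.21 and 0.06 in the upper panel, and between −3.83 and −0.82, with Anxa2 at 0.25, in the lower.

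The HFD cells held fewer Il1rl1-positive cells. An Il1rl1 UMI was found in 17.6% of HFD cells (16.5 to 18.7) against 78.1% of NCD cells (76.9 to 79.2), and in 58.7% of KO cells (57.1 to 60.2) against 71.0% of WT cells (69.5 to 72.5). Of the 10 genes, 9 were higher in Il1rl1-positive than in Il1rl1-zero cells of every condition, and Anxa2 was lower in every condition. The share of all genes called higher in this contrast was 10.6% in KO, 12.4% in WT, 14.4% in HFD and 11.6% in NCD cells, and the share called lower was 23.4%, 20.4%, 15.4% and 26.1% in the same order. The members' median log2 ratios were 0.81 in KO, 0.68 in WT, 0.90 in HFD and 0.92 in NCD cells, beside medians of −0.11, −0.08, −0.03 and −0.13 over all genes. These 4 conditions are not replicates of each other.

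S100a6 was at 1666 CPM in Il1rl1-positive and 676 CPM in Il1rl1-zero HFD cells (1.30), and at 5267 and 2480.3 CPM in the same classes of NCD cells (1.09). Vim was at 2039.9 and 921 CPM in HFD cells (1.15, 1.11 to 1.19) and at 4938 and 2374 CPM in NCD cells (1.06, 1.02 to 1.09). S100a11 had the smallest difference of the 9, from 0.34 (0.29 to 0.39) in WT to 0.39 (0.35 to 0.43) in NCD cells. Anxa1 had the largest in HFD cells, at 207 CPM in Il1rl1-positive against 25.8 CPM in Il1rl1-zero cells (3.00, 2.82 to 3.18), while in the other 3 conditions its log2 ratio lay between 0.96 and 1.13. Anxa2 ran the other way, at −0.85 in KO, −0.58 in WT, −0.42 (−0.57 to −0.28) in HFD and −0.88 in NCD cells.

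Il1rl1-positive cells were deeper, with medians of 3772 to 4221 UMIs against 3046 to 3166 in Il1rl1-zero cells. With every cell thinned to 2000 UMIs before the split, 7 of 10 genes were still higher in Il1rl1-positive KO cells, 8 in HFD and 8 in NCD cells. In WT cells 5 were higher, and the members' median there was 0.32. The share of all genes called higher was not computed for this thinned split, so these counts stand without it. In these thinned cells Anxa1 in HFD cells stood at 30.3 CPM with 0, 163 with 1, 325 with 2 and 435 CPM with 3 or more Il1rl1 UMIs, over 3247, 300, 123 and 131 cells. In NCD cells it stood at 661, 1004, 1058 and 1026 CPM over the same steps, and the counting intervals of the steps with 1 or more UMIs overlapped. S100a6 in HFD cells also went on from 618 CPM with 0 to 1350.0, 1911 and 2393 CPM with 1, 2 and 3 or more. Not all members did so, as Crip1 in HFD cells stood at 960 CPM with 0 and at 1630, 1618 and 1687 CPM after that. From 2 to 3 or more Il1rl1 UMIs, S100a6 went down from 4519 to 4051 CPM in KO and from 4863 to 4388 CPM in WT cells.

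Set side by side within a class, the diets still differed for most members. In Il1rl1-positive cells 9 of 10 genes were lower in HFD than in NCD cells, where 14.5% of 9886 genes were lower, with a members' median of −1.29 against 0.08 over all genes. In Il1rl1-zero cells all 10 were lower, where 18.8% of 10034 genes were, with a median of −1.25 against −0.03. With cells thinned to 2000 UMIs before the split, the members' median was −1.31 in Il1rl1-positive and −1.85 in Il1rl1-zero cells. The classes rest on 1 Il1rl1 UMI. Such a UMI was found in 67.3% of NCD and 14.6% of HFD cells after thinning, against 78.1% and 17.6% before it. Il1rl1-zero cells can thus include cells whose Il1rl1 RNA was missed, and the classes need not be alike in the 2 diets. Anxa2 was at 0.09 (−0.06 to 0.24) in Il1rl1-positive cells, at 122 CPM in HFD and 114 CPM in NCD cells, and at −0.37 (−0.49 to −0.25) in Il1rl1-zero cells, at 163 CPM in HFD and 211 CPM in NCD cells. Each class taken as a whole, Anxa2 was lower in HFD within one and close to NCD in the other, and above NCD over all cells. Within each class its sign differed between the finer ranges of cells given below. Il1rl1-zero cells, which held more of it in every condition, were the larger part of the HFD cells.

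For Anxa1 the within-class ratio was −2.25 (−2.35 to −2.15) in Il1rl1-positive cells, at 207 CPM in HFD and 982 CPM in NCD cells, and −4.17 (−4.34 to −4.01) in Il1rl1-zero cells, at 25.8 CPM in HFD and 465 CPM in NCD cells. Lgals3 was about equally far from NCD in both classes, at −2.36 in Il1rl1-positive and −2.40 in Il1rl1-zero cells. Weighting the HFD classes to the NCD proportions gave a members' median of −1.32, with Anxa1 at −2.38, Lgals3 at −2.38, S100a6 at −1.70, S100a4 at −1.35 and Anxa2 at −0.01. The members' differences were thus smaller, but of the same sign for 9 genes, once the Il1rl1 classes had equal weight in both diets.

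Between KO and WT cells the same split left small differences. In Il1rl1-positive cells 1 gene was lower in KO, Anxa2 at −0.32 (−0.43 to −0.22), where 6.45% of 9743 genes were lower, and the members' median was −0.01. That call was lost in cells thinned to 2000 UMIs. In Il1rl1-zero cells 1 gene was lower, S100a6 at −0.42 (−0.46 to −0.38), at 1962 CPM in KO and 2630.4 CPM in WT cells, where 10.1% of 10129 genes were lower, and the median was −0.11. S100a4 was at 0.06 (0.03 to 0.09) in Il1rl1-positive and −0.26 (−0.31 to −0.20) in Il1rl1-zero cells. Weighted to the WT proportions the median was −0.03, and no gene was beyond 0.24 in size.

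**Figure D3:**
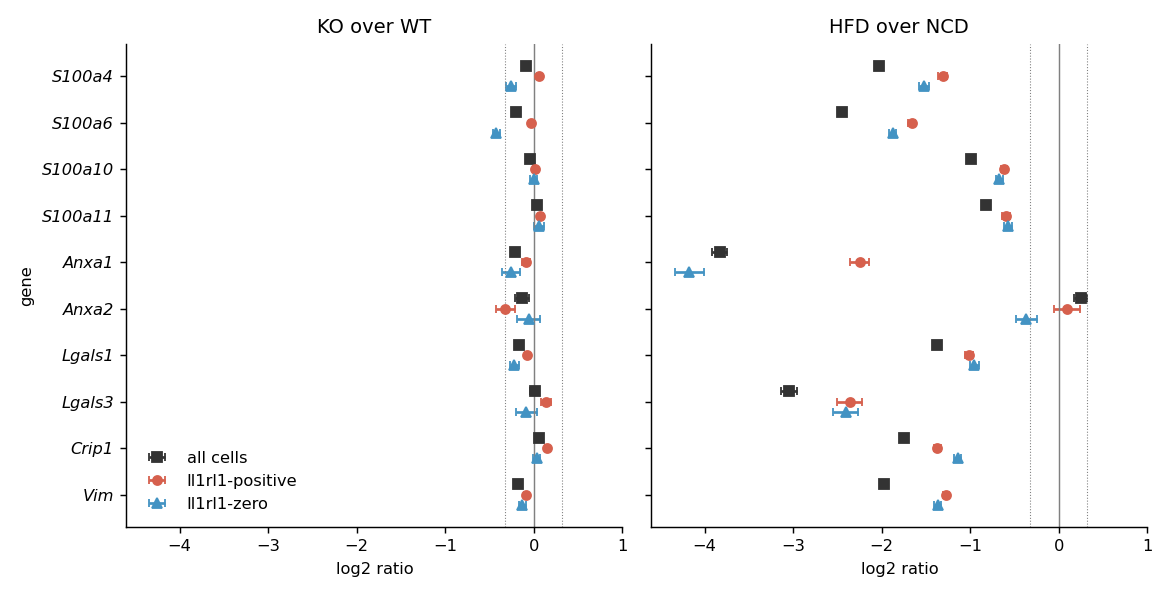
Log2 ratio of CPM of each gene, KO over WT at left and HFD over NCD at right, in all cells (squares), Il1rl1-positive cells (circles) and Il1rl1-zero cells (triangles), with exact 95% counting intervals; dotted lines mark a log2 ratio of 0.32 in either direction. In the right panel the points of 9 genes lie below −0.32 in all 3 sets of cells, and Anxa2 does so in Il1rl1-zero cells only.

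The cells were also divided, without clustering, into 5 ranges by UMIs: Il1rl1-positive with and without Areg (amphiregulin), and among Il1rl1-zero cells a resting gate (2 or more UMIs summed over a short list of resting-state genes that includes Ccr7, Lef1 and Tcf7), a type 1 gate (a Cxcr3, Tbx21 or Ccl5 UMI) and the remainder. These are ranges and not cell types. The resting gate held 50.8% of HFD cells against 6.95% of NCD cells, and 13.9% of KO cells against 6.79% of WT cells. It was the range with the lowest level for 8 of the 10 genes in KO, 8 in WT, 4 in HFD and 9 in NCD cells. In HFD cells 5 genes were instead lowest in the remaining Il1rl1-zero cells. The order of ranges was not computed over all genes, so these counts stand without that share.

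Of the 10 genes, Anxa1 varied most over these ranges in KO, WT and HFD cells, with a highest level 8.29-fold above the lowest in KO and 23.2-fold in HFD cells. The HFD value rests on a resting-gate level below the 33.9 CPM of Anxa1 in the diet pool's B-cell droplets, described with the counts per cell. In NCD cells Lgals3 varied most, 6.64-fold against 5.93-fold for Anxa1. Anxa1 stood at 9.98 CPM (8.15 to 12.1) in the resting gate of HFD cells and 167 CPM (145 to 191) in that of NCD cells, and at 92.2 CPM in KO and 118 CPM in WT cells. In cells with Il1rl1 and Areg it stood at 231 CPM in HFD, 980 CPM in NCD, 764 CPM in KO and 805 CPM in WT cells. In the type 1 gate it was at 32.0 CPM in HFD and 457 CPM in NCD cells (−3.83), and in the remaining Il1rl1-zero cells at 117 and 897 CPM (−2.94).

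The members' median of HFD over NCD was −1.15 in cells with Il1rl1 and Areg, −1.63 in those with Il1rl1 alone, −0.64 in the resting gate, −0.75 in the type 1 gate and −2.24 in the remaining Il1rl1-zero cells. All genes had medians between −0.10 and 0.12 there. Vim, for example, was at 899 CPM in HFD and 4892 CPM in NCD cells of that last range (−2.44), but at 831 and 1121 CPM in the resting gate (−0.43). S100a6 was at 4269 CPM in the last range of NCD cells and 5156 CPM in NCD cells with Il1rl1 and Areg. In HFD cells it was at 746 CPM in the last range and 589.7 CPM in the resting gate, whereas Anxa1 was at 117 CPM in that range and 9.98 CPM in the resting gate. Weighting the 5 ranges of HFD cells to NCD proportions gave a members' median of −1.27.

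Between KO and WT cells the members' median was within 0.21 of 0 in all 5 ranges. The largest single ratios were in the resting gate, with Lgals3 at −0.73 (80.7 CPM in KO and 134 CPM in WT cells) and Anxa2 at −0.61 (171 and 261 CPM), and the Lgals3 values rest on 175 and 132 UMIs. S100a6 was at −0.53 both there and in the remaining Il1rl1-zero cells, and S100a4 at −0.41 in those remaining cells.

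Anxa2 was highest in the type 1 gate of KO (278 CPM), HFD (182 CPM) and NCD cells (286 CPM), and in WT cells it was at 258 CPM there and 261 CPM in the resting gate. Its HFD over NCD log2 ratio was −0.65 in the type 1 gate, −0.24 in the resting gate and 0.43 in the remaining Il1rl1-zero cells. That last value rests on 249 HFD and 103 NCD UMIs. In Il1rl1-positive cells the ratio of Anxa2 was 0.27 with Areg and −0.46 without. Its Pearson correlation with the members' mean profile over the 20 values (5 ranges in 4 conditions) was −0.14, where the other 9 genes were between 0.92 (Anxa1) and 0.98. S100a4 and S100a6 had the closest pair of profiles, at 0.98. The 20 values share libraries and depth, and all 10 genes enter the mean. Beside the members, the genes most like this mean among 6759 measured were Plp2 (0.98), Cxcr6, Myadm, Mgst3, Ywhab, L1cam, Cmpk1 and Plin2 (0.97 each). Cxcr6, a chemokine receptor of tissue T cells, was at 59.4 CPM in HFD and 510.1 CPM in NCD cells, and Plin2, a coat protein of lipid droplets, at 53.1 and 499 CPM. The most opposite were Ctss (−0.97), Rcbtb1 and Trim59 (−0.95) and Tbc1d4 (−0.94). Ctss, the protease cathepsin S, was at 135 CPM in HFD and 16.7 CPM in NCD cells.

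**Figure D4:**
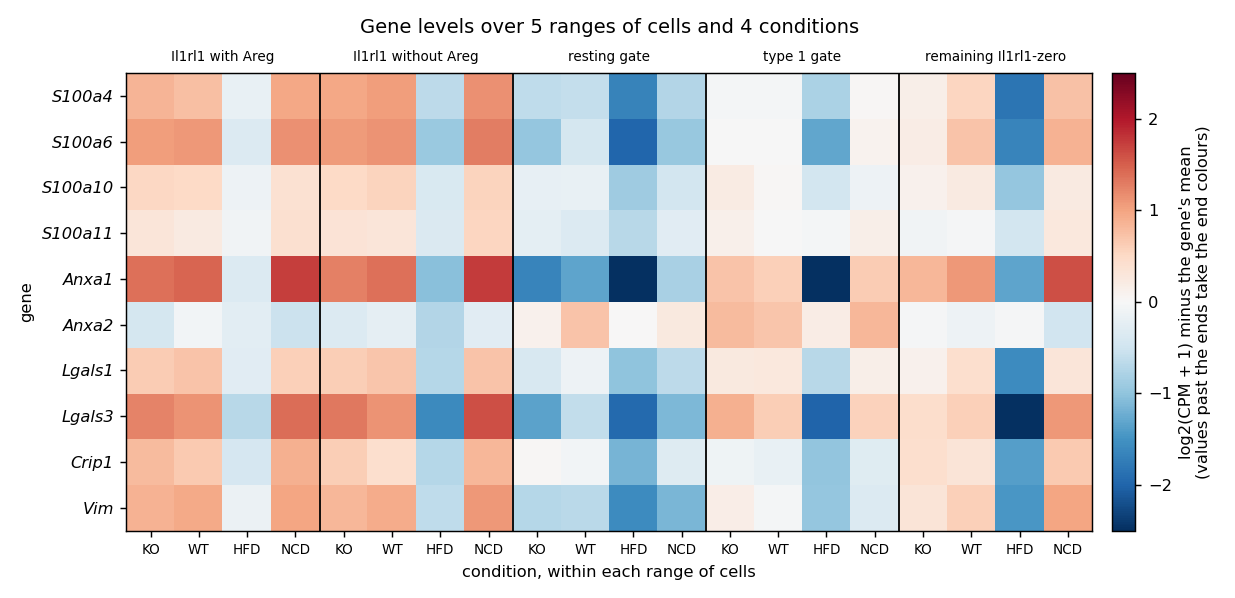
Heat map of log2(CPM + 1) of each gene minus its own mean over the 20 columns, which are KO, WT, HFD and NCD within each of 5 ranges of cells; red is above and blue below the gene's mean. The HFD columns are the bluest of each range for 9 genes, while Anxa2 is highest in the type 1 range of NCD and KO cells.

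Counted per cell, most cells outside the HFD pool held most of the genes. With each cell thinned to 2000 UMIs, and 311 KO, 307 WT, 711 HFD and 286 NCD shallower cells left out, a mean of 7.16 of the 10 genes had a UMI in KO, 7.52 in WT, 4.36 in HFD and 7.95 in NCD cells. At least 7 were found in 70.2% of KO and 78.5% of WT cells, and in 20.3% of HFD and 86.1% of NCD cells. At most 2 were found in 24.5% of HFD and 1.48% of NCD cells. Among Il1rl1-positive thinned cells, 7 or more were found in 44.2% of HFD and 93.3% of NCD cells, and among Il1rl1-zero cells in 16.2% and 71.2%.

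By gene, an Anxa1 UMI was found in 7.31% of HFD cells (6.51 to 8.19) and 71.1% of NCD cells (69.8 to 72.4) after thinning, and in 9.8% and 78.7% before it. The thinned shares were 50.4% in KO and 57.8% in WT cells. Lgals3 was found in 7.16% of HFD and 52.6% of NCD cells, and in 40.3% of KO and 41.9% of WT cells. S100a10 was the most widely found in HFD cells, at 78.6% (96.4% in NCD), and S100a4 was in 38.5% of HFD and 89.0% of NCD cells.

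Droplets of B cells, with 2 or more Cd79a UMIs and no CD3 UMI, gave a level to compare with, since B cells need not express these genes. In the 170 such droplets of the diet pool (median 3526 UMIs), Anxa1 was found in 6.92% (3.50 to 12.0) and Lgals3 in 5.66% (2.62 to 10.5) after thinning. The shares of both genes over all HFD cells lie within these intervals, so detection over all HFD cells cannot be told from that level. S100a4, at 9.43% in B-cell droplets, lies well above its own share there in HFD cells. By CPM, Anxa1 was at 207 in Il1rl1-positive HFD cells, 25.8 in Il1rl1-zero HFD cells and 33.9 in these droplets. The droplets thus give no floor, as Il1rl1-zero HFD cells lay below them. S100a10 was found in 61.0% of the diet pool's B-cell droplets. In the 68 B-cell droplets of the Srebf2 pool (median 4060.5 UMIs) Anxa1 and Lgals3 were each found in 6.06%. B cells themselves express some members, as Vim was found in 81.8% and 59.7% of these droplets in the Srebf2 and diet pools.

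**Figure D5:**
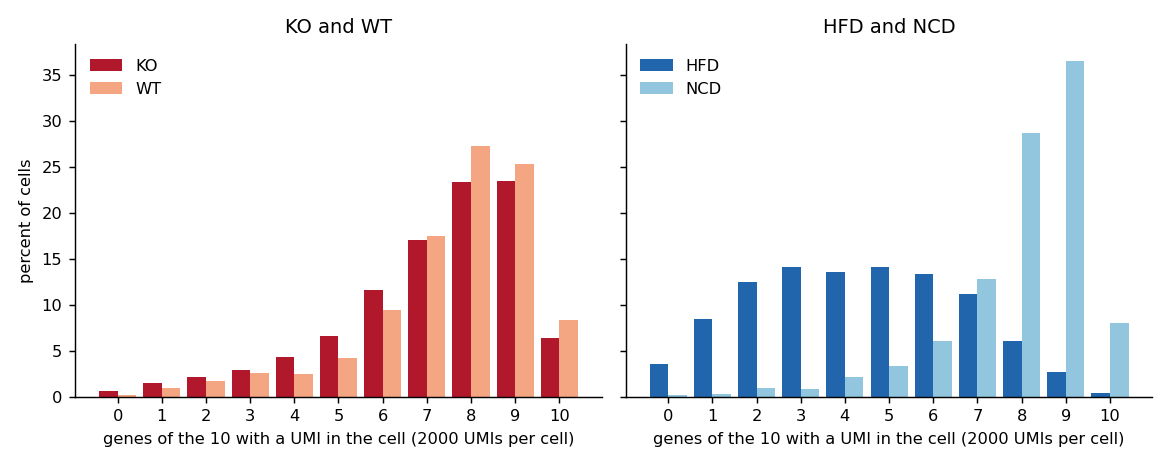
Percent of cells by how many of the 10 genes have a UMI after thinning to 2000 UMIs, KO and WT at left and HFD and NCD at right. NCD, KO and WT cells pile up at 7 to 9 genes, while HFD cells spread over 1 to 7 genes.

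Across thinned cells of a condition, pairs of members had a median Spearman correlation of 0.39 in KO, 0.37 in WT, 0.26 in HFD and 0.32 in NCD cells over 45 pairs, given as a description. S100a4 and S100a6 were among the closest, at 0.57, 0.52, 0.46 and 0.48. S100a10 and Anxa2, whose proteins form a complex, were at 0.09, 0.10, 0.19 and 0.05, and weak values between sparse counts are not read as a relation.

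Other members of the families gave a context. All 5 other annexins at 5 CPM or more were lower in HFD than in NCD cells, with a median of −0.59: Anxa4 stood at 14.9 and 33.7 CPM (−1.17), Anxa11 at −0.71, Anxa5 at −0.59 and Anxa6 at −0.51. Anxa5 is the annexin that binds phosphatidylserine. None of the 5 was called in KO over WT cells (median −0.05). Of 14 listed genes named for S100 proteins 3 were measured, the S100 genes S100a1 at −0.80 and S100a13 at −0.52, and S100pbp, which encodes a binding protein and no S100 protein, at 0.46. The neutrophil genes S100a8 and S100a9 had at most 1 UMI in any condition. Of 4 measured genes named for galectins, 0 were called in the diet comparison: Lgals9 was at −0.18, Lgals8 at 0.20, the galectin-related Lgalsl at −0.26 and Lgals3bp, which encodes a galectin-binding protein, at −0.08. In KO over WT cells 1 of 5 was called, Lgals7 at 0.96 and 5.04 CPM in KO.

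Near S100a4 and S100a6 on chromosome 3, the measured S100 genes S100a13 and S100a1 were also lower in HFD, S100a13 at 231 CPM in HFD and 332 CPM in NCD cells. S100a5, between S100a4 and S100a6, reached at most 0.63 CPM in any condition and S100a3 at most 2.68 CPM. Chtop, a neighbour outside the family, was at 86.3 and 85.8 CPM (0.01).

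Of other LIM-only and intermediate filament genes, 6 of 8 were lower and 2 higher in HFD cells (median −1.03). Lmna, the nuclear lamin A/C, was at 43.8 CPM in HFD and 370.2 CPM in NCD cells (−3.08), Plec, the linker of intermediate filaments, at −1.78, Crip2 at −1.61 and Lmo4 at −1.27. In KO against WT cells 1 of 9 was lower (Lmna, −0.32) and 1 higher (Krt18, 1.45, on 91 UMIs in KO and 28 in WT cells). The mesothelial markers Msln and Upk3b had 53 and 90 UMIs in KO cells against 0 and 1 in WT cells, and their part in the Krt18 difference was not tested. Among binding partners, 4 of 16 were lower and 3 higher in HFD cells. Ptafr, the platelet-activating factor receptor, was at −3.78, Ahnak, the large scaffold bound by S100a10 and Anxa2, at 351 and 1166 CPM (−1.73), Plaur at 1.48 and the integrin chain Itgb1 at 1.35. Myh9, the S100a4 partner, was at 550 CPM in HFD and 459 CPM in NCD cells (0.26), and Cacybp at 107 and 88.2 CPM (0.27). Fpr1 and Fpr2, receptors for Anxa1, had no UMI in any condition. In KO over WT cells 3 partners were higher (Plaur 0.89, Itgb1 0.82, Cd7 0.57) and Ptafr was lower (−0.50).

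Of 24 actin and membrane remodelling genes, 8 were lower and 3 higher in HFD cells with a median of −0.14. Tagln2 was at −1.25, Vcl at −1.13, Capg at −0.91 and the tetraspanin Cd9 at 2.83. In KO cells Cd9 was higher (0.71) and Vcl lower (−0.37). Of 10 resting-state genes 9 were higher in HFD cells (median 2.96), with Dapl1 at 3.82, Igfbp4 at 3.72 and Ccr7 at 3.15, and 7 of 8 measured ones were higher in KO cells (median 0.67). Of 14 genes of the adipose ST2 program 12 were lower and 2 higher in HFD cells (median −2.30), led by Pparg (−3.01), Klrg1 (−2.94), Il1rl1 (−2.61) and Fgl2 (−2.53), and in KO cells 2 were lower and 1 higher (median −0.20). Of 9 glucocorticoid-responsive genes, 3 were lower and 2 higher in HFD cells (median 0.04), with Cdkn1a at −1.66 and the decoy receptor Il1r2 at 2.79.

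Several other measures moved with the diet. Of 14 genes known to respond to tissue dissociation, 13 were lower in HFD than in NCD cells (median −2.18), among them Atf3 (−3.65), Egr1 (−3.60), Fosb (−2.78) and Hspa1b (−2.57), and their summed level was 8155 CPM in HFD and 22610.3 CPM in NCD cells; 5 of 14 were lower in KO than in WT cells (median −0.26). Their part in the members' difference was not tested. Of 13 stromal, mesothelial or adipocyte markers 5 were higher and 0 lower in HFD cells, summing to 129 CPM in HFD and 18.9 CPM in NCD cells, with 3 markers at 0 in HFD and 4 in NCD cells, and Msln and Upk3b at 0 in both. The 7 HFD cells with 10 or more UMIs of these or endothelial markers held 10.8% of the HFD UMIs of Anxa1. They held 4.74% of those of Anxa2 and 2.48% of those of S100a6. Cells with a CD3 UMI and no UMI of these or endothelial markers numbered 3249 of 4512 in HFD and 4305 of 4938 in NCD. Among them 9 of the 10 genes were lower, beside 1579 lower and 2424 higher of the 10024 genes measured over all cells. There Anxa1 was at −3.73, Lgals3 at −3.18, S100a6 at −2.46 and Lgals1 at −1.53.

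The 15 macrophage and myeloid markers summed to 10.4 CPM in HFD and 8.51 CPM in NCD cells, and Lyz2 was at 0 by the choice of cells. Of 10 markers of type 2 innate lymphoid cells, which also use ST2, all 6 measured ones were lower in HFD cells (246 and 741 CPM in sum). Most of these sums was Gata3, at 220 CPM in HFD and 591 CPM in NCD cells, which is also on the list of the adipose ST2 program. Of 11 dendritic cell markers 3 were lower and 1 higher (37.6 and 113 CPM in sum). Of 5 measured CD8 T or NK cell markers 4 were lower and 1 higher in HFD cells (28.2 and 47.7 CPM in sum), with Ncr1 at 0 UMIs in HFD and 116 in NCD cells. Of 4 measured B or plasma cell markers 2 were lower and 2 higher (277 and 182 CPM in sum), with Jchain at 4.37 CPM in HFD and 57.2 CPM in NCD cells and Ighm at 251 and 81.7 CPM. Of 6 measured markers of conventional CD4 T cells 4 were lower and 1 higher (1037 and 1368 CPM in sum), with Csf2 at −4.96 and Tnfsf8 at 2.17. Endothelial markers, 1 of them measured and higher, summed to 95.1 CPM in HFD and 27.5 CPM in NCD cells. That 1 gene, Pecam1, made up 88.8 and 24.3 CPM of these sums. The part of these lists in the members' differences was not tested. Erythroid genes summed to 292 CPM in HFD and 88.3 CPM in NCD cells, and to 82.8 CPM in KO and 464 CPM in WT cells. The 58 HFD droplets left out for a Lyz2 UMI were rich in Lgals3 (8036 CPM) and Anxa1 (3244 CPM). With all such droplets, and those with Cd79a or Cd8a, kept in, Anxa1 was at −2.05 and Anxa2 at 0.60, which made Anxa2 the only member called higher, and the members' median was −1.34. In cells with a Foxp3 UMI the median was −1.65, and Anxa2 was called higher at 0.45.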

How the data were processed

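The deposited values are unnormalized counts of UMIs, one matrix per pool, in which the hashtags have rows of their own. Per the file headers, Cell Ranger 7.1.0 (Srebf2 pool) and 7.0.1 (diet pool) wrote them; the submitters' processing notes list 7.0.1 and the mm10 build. The authors' own later filters were not used here. Receptor sequences were not used.

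Cells were chosen as stated above. Droplets with both hashtags fall out through the 90% rule; doublets within a condition remain. Counts were summed per condition, expressed as CPM and compared as log2 ratios with 0.5 counts added. Intervals at 95% are exact Poisson (levels), exact binomial on the split of counts (ratios) or Clopper-Pearson (shares). Genes counted as measured reached 5 CPM in either condition of a comparison. Thinning drew each cell once, with a fixed seed, to 2000 UMIs. Python 3.11.15, numpy 2.4.6, scipy 1.17.1 and pandas 2.3.3 were used, and the scripts were tested on simulated data.

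The members, lists and alternatives were chosen with earlier results of these data known. Genes named beside the members are, per list and comparison, up to 4 farthest from equal levels, and the 8 most and 4 least like the members' mean profile among genes at 20 CPM or more; partners and neighbours of members, Lgals7 and marker genes named outside this rule were chosen after their values were seen. One gene that the rule names is not reported here. Promoter windows came from RefSeq (GRCm38.p6), the build of mm10.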

Additional observations from a re-analysis of the deposited data

Results flagged for a closer look

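S100a4 differed in sign between classes of cells in the Srebf2 experiment. Its KO over WT log2 ratio was 0.06 in Il1rl1-positive cells, at 2092 CPM in KO and 2009 CPM in WT cells, and −0.26 in Il1rl1-zero cells, at 988 CPM in KO and 1179.8 CPM in WT cells. The gap between the classes was 0.31 on the log2 scale. It drew attention because the classes, which are subsets of cells of the same KO and WT samples, moved opposite ways. The difference was not tested, since each condition is 1 pool. Within the finer ranges the sign did not follow these classes. The ratio was 0.10 in Il1rl1-positive cells with Areg and −0.07 in those without, −0.03 in the resting gate, −0.01 in the type 1 gate and −0.41 in the remaining Il1rl1-zero cells, a range of 355 KO and 368 WT cells. The resting gate held 548 KO and 237 WT cells and the type 1 gate 731 KO and 406 WT cells, so the Il1rl1-zero class was made up differently in the 2 conditions.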

How the results depend on the processing

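No paired analysis was possible because each condition is 1 sample. Depth limits Lgals3 and Anxa1 in HFD cells, which rest on 1151 and 1167 UMIs, and the Il1rl1 split, which rests on 1 UMI. The ratios were taken under 15 alternatives to the cell choice, scaling and weighting. Of these, 4 were added after seeing the data: CD3-positive cells without stromal or endothelial UMIs, Foxp3-positive cells, weighting of 5 ranges, and removal of shared barcodes. The 9 members called lower in HFD cells were called lower in all 15, and no member was called in KO cells. Anxa2 in HFD ranged from −0.22 to 0.60. The cause of the shifts below was not tested.

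The HFD over NCD median of −1.86 became −1.34 with all droplets kept (1 member then higher) and −1.93 with a wider marker list. That wider list kept only 1412 of 4512 HFD and 3168 of 4938 NCD cells. The median became −1.88 with the total taken without the members, −1.94 with median scaling, −2.02 with cells weighted equally and −1.98 with thinning. With Il1rl1 classes weighted it was −1.32, and with 5 ranges weighted −1.27. It was −1.91 in CD3-positive cells without stromal or endothelial UMIs and −1.65 in Foxp3-positive cells (1 member higher). In Il1rl1-zero cells thinning gave −1.85. The KO over WT median of −0.11 became −0.034 with Il1rl1 classes weighted and −0.021 with 5 ranges weighted, and the 1 member lower in Il1rl1-positive cells became 0 with thinning. Il1rl1-positive over Il1rl1-zero medians became 0.52 (KO), 0.32 (WT, with 5 members higher) and 0.49 (NCD) with thinning, 0.63 (WT), 1.13 (HFD) and 1.00 (NCD) with cells weighted equally, and 1.03 (HFD) with 2 or more Il1rl1 UMIs.

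Among all genes, those higher in HFD were 1247 at 1.5-fold, 667 at 2-fold, 1363 at a minimum of 20 CPM and 7050 with no minimum, in place of 2364, and those lower were 942, 538, 933 and 5418 in place of 1585. For KO, the higher were 174, 55, 191 and 4914 in place of 531, and the lower 130, 49, 141 and 3787 in place of 481.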
